A study of Arabidopsis thaliana with 9 samples.

Results

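The genes described here encode the enzymes that build riboflavin (vitamin B2) in Arabidopsis thaliana. They were chosen by gene symbol in pathway order, and 8 genes were found in both deposited tables, out of 24635 genes in all. They are GCH (also named RIBA1), RIBA2, RIBA3, PyrD, AT3G47390 (PHS1 or PyrR, listed in the tables as gene-AT3G47390), AT4G11570, COS1 and AT2G20690. Polyadenylated RNA of whole seedlings was sequenced in 9 strand-specific libraries, 3 in each of 3 groups. The Col-0 group was untreated wild type. The mutant group was melinoe, an EMS-induced mutant of FMN/FHY (AT4G21470), the gene of the enzyme that turns riboflavin into FMN. It is a line from chemical mutagenesis, and which other changes it carries is not given in the sources used here. The riboflavin group was wild-type Col-0 that received riboflavin during 8 hours of darkness, at 0.6 mM by the sample labels and 0.2 mM by the series text. All seedlings were 6 days old and came from a cycle of 16 hours light and 8 hours dark, on medium with 1% sucrose. Neither the hour at which untreated seedlings were collected nor a mock treatment of them is given. In every comparison with the riboflavin group the vitamin, the dark hours and the handling therefore cannot be told apart. The sample labels and the series text also differ on light intensity.

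Plants make riboflavin in plastids from GTP and ribulose 5-phosphate. GTP cyclohydrolase II opens the ring of GTP, and the product is deaminated, reduced and freed of its phosphate to a pyrimidine. A separate branch, DHBP synthase, makes a sugar-derived unit with 4 carbons from ribulose 5-phosphate, lumazine synthase joins both, and riboflavin synthase makes the vitamin from the lumazine. Riboflavin is then converted to FMN and FAD, the cofactors of many oxidoreductases and of the blue-light photoreceptors. GCH carries both the cyclohydrolase and the DHBP synthase activity, whereas RIBA2 is known to have kept the DHBP synthase and RIBA3 the cyclohydrolase activity.

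Library totals ran from 19964397 to 21421418 counts. FMN/FHY was at 41.3, 44.6 and 40.2 CPM (counts scaled for library size) in Col-0 and at 36.5, 39.0 and 38.1 CPM in the mutant, and a transcript level does not check a label that rests on an EMS allele. The seedling identity was checked with marker genes. The summed level of 4 green shoot markers was 21030 to 21780 CPM in Col-0, 16810 to 17730 CPM in the mutant and 7135 to 7244 CPM with riboflavin. For 6 root markers the sums were 4006 to 4023, 4452 to 4540 and 3449 to 3587 CPM, of which PYK10 alone was 3839 to 3868 CPM in Col-0 and 4325 to 4420 CPM in the mutant. In the mutant PYK10, SCR and SHR were called higher, TIP2;3 was called lower at -1.71 (edgeR, adjusted p = 1.18e-14) and CASP1 and WER were not called, while all 6 were called lower with riboflavin. Among all genes tested 25.4% were called higher and 25.2% lower in the mutant, and 36.8% and 37.4% with riboflavin. The 5 seed and flower markers summed to at most 11.6 CPM in any library, with OLEO1 at 0 in riboflavin library B and SESA1 at 0 in riboflavin library C. The part of these shifts in the values below was not tested, and in whole seedlings fewer cells of a type and less RNA per cell cannot be told apart.

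The 8 transcripts spanned a wide range of levels within each group. Levels between genes are given as TPM computed here from the counts and the longest annotated transcript, which came out 1.02 to 1.21 times the authors' deposited mean TPM for the 8 genes. In Col-0, COS1 (lumazine synthase) was the most abundant at 86.5 ± 4.57 TPM (SD, n = 3), followed by the phosphatase gene AT4G11570 at 60.7 ± 0.80 TPM, GCH at 54.4 ± 2.08 TPM and the riboflavin synthase gene AT2G20690 at 49.7 ± 2.36 TPM. RIBA2 was at 20.1 ± 0.87 TPM, PyrD (the deaminase) at 17.4 ± 0.64 TPM, RIBA3 at 15.3 ± 0.44 TPM and AT3G47390 (the reductase) at 14.6 ± 0.57 TPM. Only the ranges of the neighbours RIBA3 and AT3G47390 overlapped. The place of GCH depends on the length used, since the authors' deposited mean TPM put AT2G20690 at 47.3 and GCH at 45.0 in Col-0. The deaminase and reductase genes of the middle of the pathway stood near the low end of the 8, with 61.5% and 57.5% of all listed genes below them, against 90.9% for COS1.

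In the mutant RIBA2 and RIBA3 exchanged places around PyrD, with RIBA3 at 19.7 ± 0.87, PyrD at 18.4 ± 0.80 and RIBA2 at 16.3 ± 0.43 TPM. RIBA3 and PyrD overlapped there, as did AT4G11570 and GCH. With riboflavin AT4G11570 was first at 125 ± 2.06 TPM, GCH at 61.2 ± 2.94 and COS1 at 58.9 ± 3.18 TPM overlapped, and AT2G20690 followed at 31.9 ± 1.77 TPM. RIBA2, RIBA3, PyrD and AT3G47390 were at 24.5 ± 2.39, 13.8 ± 0.45, 11.8 ± 1.09 and 10.7 ± 0.48 TPM, and the last pair overlapped. The place of GCH depends on the length used in these groups too. The authors' deposited mean TPM put AT2G20690 at 49.7 and GCH at 46.2 in the mutant. With riboflavin they put COS1 at 57.7 and GCH at 50.8.

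**Figure D1:**
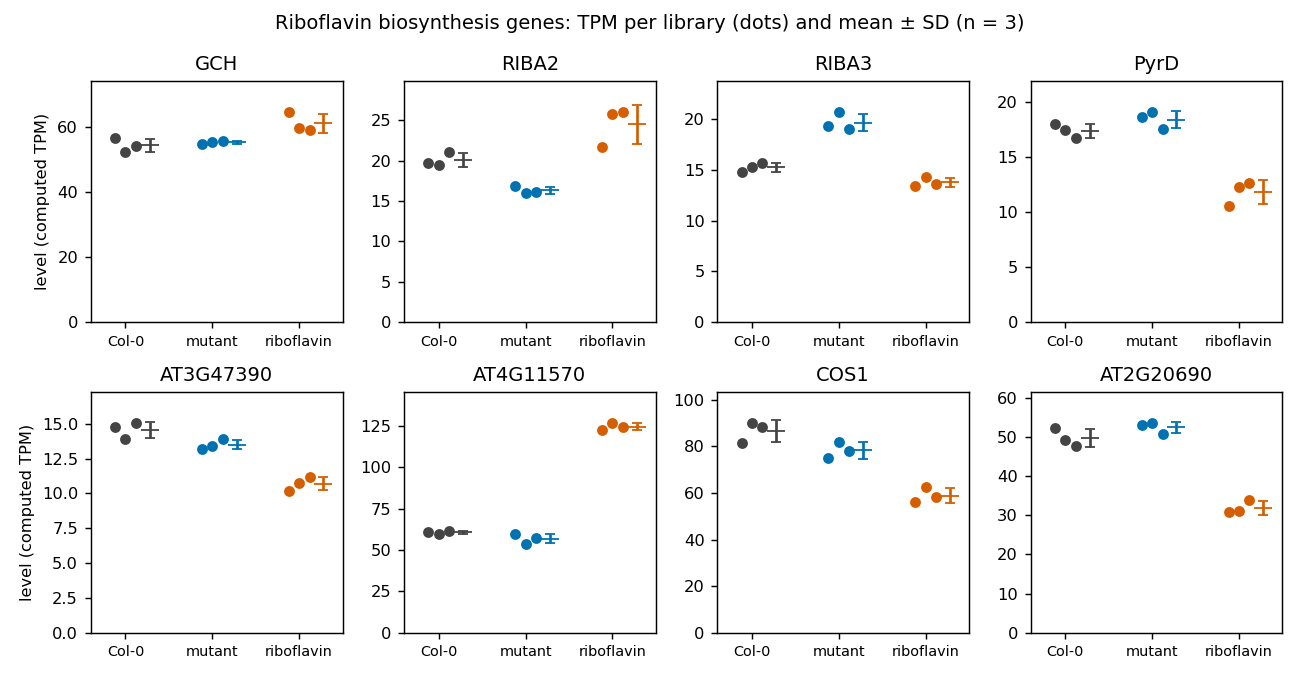
Level in TPM (y axis, from 0) of each of the 8 genes in the 3 Col-0, 3 mutant and 3 riboflavin libraries (dots, in the order A, B, C), with mean ± SD beside them. AT4G11570 lies at 123 to 127 TPM with riboflavin and at 54.0 to 61.5 TPM in the other libraries, while AT2G20690, COS1, PyrD and AT3G47390 are lowest with riboflavin.

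Most of the pathway differed between riboflavin and Col-0 libraries, in both directions, whereas in the mutant RIBA3 rose and RIBA2 fell and PyrD and AT2G20690 passed the test narrowly. With riboflavin, AT4G11570, RIBA2 and GCH rose and AT2G20690, PyrD, COS1 and AT3G47390 fell, so 3 of 8 genes were called higher and 4 lower (edgeR quasi-likelihood test at a Benjamini-Hochberg threshold of 0.05). Among all 20356 genes tested in that comparison 36.8% were called higher and 37.4% lower, so being called there does not set these genes apart. Col-0 and riboflavin libraries did not overlap in CPM for any of the 8 genes, against 75.6% of all genes. The median log2 fold change of the 8 genes was -0.29, and that of all genes -0.003. Only AT4G11570 passed a log2 fold change of 1, which 17.6% of all genes did. In the mutant 3 genes were called higher and 1 lower, where 25.4% and 25.2% of 20277 genes were, or 5148 and 5106 genes, against 3953 and 6129 genes with limma-trend on log2(TPM + 1). No member reached a log2 fold change of 1 in the mutant, against 6.07% of all genes, and the libraries did not overlap for 5 of the 8 genes, against 56.6%. The median absolute log2 fold change of the 8 genes was 0.11 in the mutant, where all genes had 0.20, and 0.49 with riboflavin, where all genes had 0.41.

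**Figure D2:**
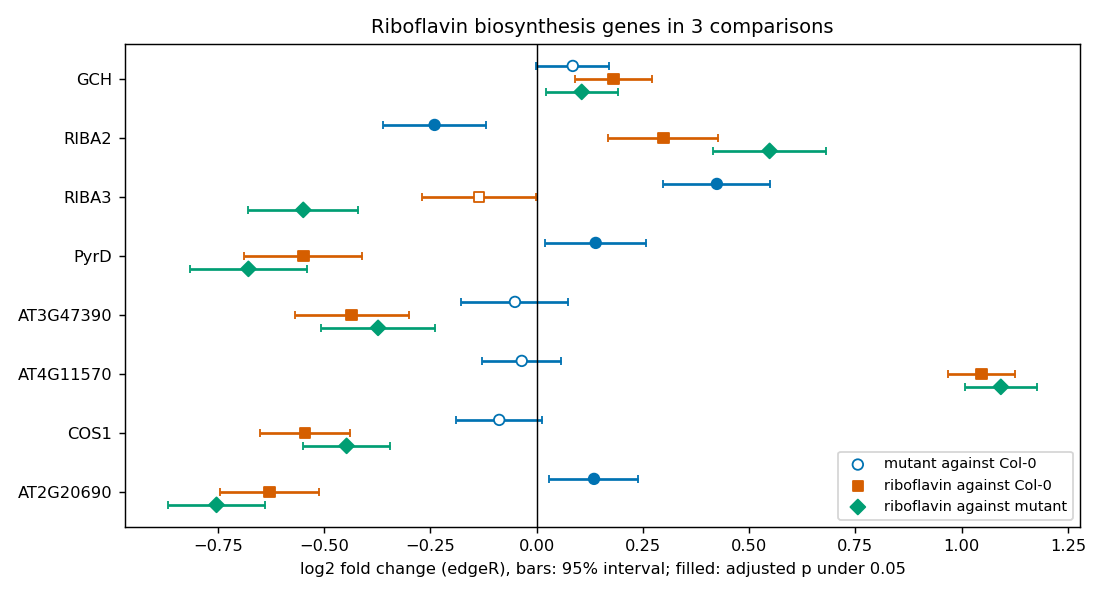
Log2 fold change (x axis) of the 8 genes (y axis, in pathway order) in mutant against Col-0 (circles), riboflavin against Col-0 (squares) and riboflavin against mutant (diamonds), with 95% intervals; filled symbols passed an adjusted p of 0.05. The first 2 comparisons share the Col-0 libraries. AT4G11570 is at 1.05 and 1.09 in the comparisons with riboflavin, and RIBA2 and RIBA3 lie on opposite sides of 0 in each comparison.

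The RIBA paralogs GCH, RIBA2 and RIBA3 stand at the entry of both branches, and RIBA2 and RIBA3 were called in opposite directions in the mutant. GCH (AT5G64300; TAIR10.1 chromosome 5, 25718008 to 25721166, 7 exons) was at 85.6, 80.3 and 82.3 CPM in Col-0 libraries A to C, at 87.3, 87.7 and 88.4 CPM in the mutant and at 99.0, 91.4 and 90.5 CPM with riboflavin. All riboflavin libraries were above all others, and library A was the highest of them. GCH rose with riboflavin by a log2 fold change of 0.18 ± 0.044 (SE; edgeR, adjusted p = 6.05e-04). Its 0.085 in the mutant was not called (edgeR, adjusted p = 0.0918; 95% interval -0.001 to 0.17), although the groups did not overlap.

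RIBA2 (AT2G22450; chromosome 2, 9530365 to 9533066, 7 exons) was at 25.4, 25.3 and 27.2 CPM in Col-0, at 22.8, 21.5 and 21.9 CPM in the mutant and at 28.4, 33.5 and 33.9 CPM with riboflavin. The mutant libraries were all below Col-0 and the riboflavin libraries all above it, with riboflavin library A nearest to Col-0. RIBA2 fell in the mutant, with a log2 fold change of -0.24 and a standard error of 0.059 (edgeR, adjusted p = 0.00127), and rose with riboflavin by 0.30 ± 0.063 (SE; edgeR, adjusted p = 1.33e-04).

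RIBA3 (AT5G59750; chromosome 5, 24073195 to 24075552, 5 or 6 exons in its 3 transcripts) showed the reverse order. It was at 18.0, 18.9 and 19.2 CPM in Col-0, at 24.7, 26.3 and 24.4 CPM in the mutant and at 16.6, 17.6 and 16.8 CPM with riboflavin. RIBA3 rose in the mutant by 0.42 ± 0.061 (SE; edgeR, adjusted p = 1.56e-06), a higher log2 fold change than 88.9% of genes had. With riboflavin it was at -0.14 and not called (edgeR, adjusted p = 0.0634; 0.00801 to 0.229 across alternatives), but it passed without Col-0 library A at -0.16 (edgeR, adjusted p = 0.0474).

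The summed transcript level of the RIBA family, which covers both entry activities, is described on the TPM scale with no test. The summed TPM of the 3 RIBA genes was 89.7 ± 2.24 in Col-0, 91.4 ± 0.75 in the mutant and 99.5 ± 0.67 with riboflavin. GCH supplied 60.6 ± 1.31%, 60.6 ± 0.56% and 61.5 ± 2.79% of it. RIBA2 supplied 22.4 ± 0.75% in Col-0, 17.9 ± 0.56% in the mutant and 24.6 ± 2.47% with riboflavin, and RIBA3 17.0 ± 0.69%, 21.5 ± 0.77% and 13.9 ± 0.42%. The RIBA3 shares did not overlap between groups, while the RIBA2 share of riboflavin library A, 21.8%, lay within the Col-0 range of 21.7% to 23.1%. Aligned coding sequences of GCH and RIBA2 were 69.2% identical, those of GCH and RIBA3 60.9% and those of RIBA2 and RIBA3 63.4%, and none of the 3 shared a stretch of 50 bases with another transcript.

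**Figure D3:**
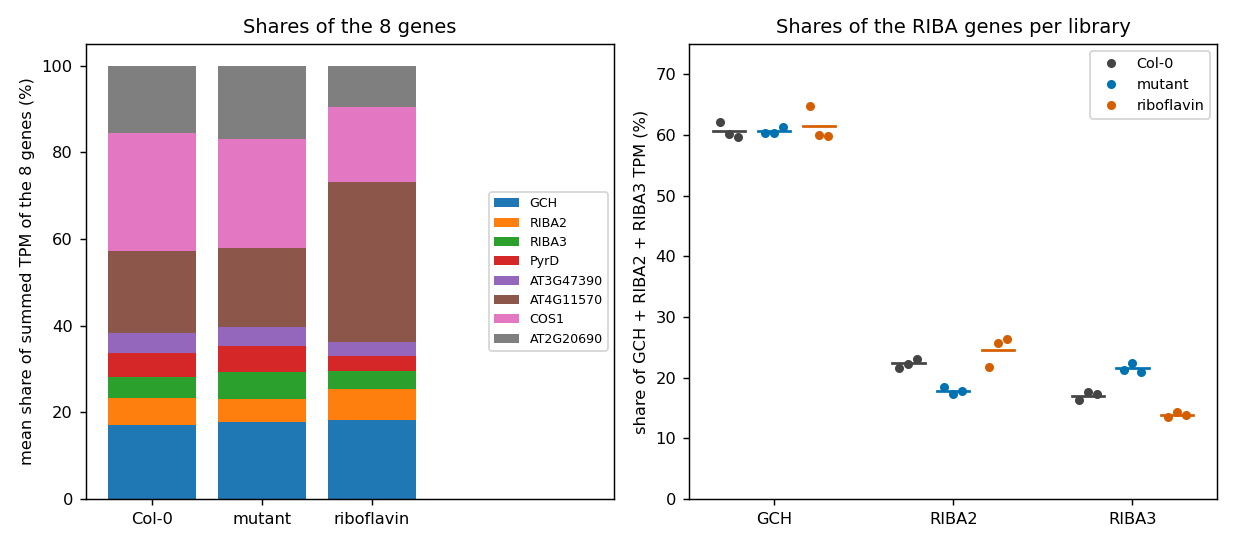
Left, mean share (percent, y axis) of each gene in the summed TPM of the 8 genes per group. Right, share of GCH, RIBA2 and RIBA3 in their own summed TPM, per library (dots) with the mean (line). AT4G11570 takes 36.9% of the pathway's TPM with riboflavin against 19.1% in Col-0, and RIBA3 takes 21.5% of the RIBA TPM in the mutant against 17.0% in Col-0.

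Sequence upstream of the annotated gene start is shown for RIBA2 and RIBA3, the paralogs that moved in opposite directions in the mutant. It reads 5′ to 3′ from the RefSeq TAIR10.1 genome, up to 250 bases and stopping at the neighbouring gene. The motifs searched on both strands were the G-box with the letters CACGTG, the W-box core written as TTGAC, the I-box core read as GATAAG, the site II element with the letters TGGGCC, the promoter box spelled TATAAA, the bZIP core written as TGACG and the core of the evening element, which reads AATATCT. Capitals mark every match on either strand, and matches of the W-box and bZIP cores can share letters.
RIBA2, chr2:9530115-9530364, plus strand: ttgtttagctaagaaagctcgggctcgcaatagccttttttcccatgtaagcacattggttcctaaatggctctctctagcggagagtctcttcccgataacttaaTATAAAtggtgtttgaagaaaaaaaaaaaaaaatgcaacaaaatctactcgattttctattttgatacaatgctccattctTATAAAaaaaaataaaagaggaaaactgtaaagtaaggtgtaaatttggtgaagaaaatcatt
RIBA3, chr5:24073087-24073194, plus strand: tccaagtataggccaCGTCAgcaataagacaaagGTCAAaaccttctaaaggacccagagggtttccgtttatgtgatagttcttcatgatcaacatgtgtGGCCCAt
The 250 bases before RIBA2 held TATAAA 144 and 63 bases before the start. The 108 bases before RIBA3 held TGACG 93, TTGAC 74 and TGGGCC 7 bases before the start, each on the minus strand. In windows of 250 bases before all 24634 genes that could be searched, CACGTG was present in 7.0%, TTGAC in 45.1%, GATAAG in 12.4%, TGGGCC in 14.6%, TATAAA in 46.7%, TGACG in 18.8% and AATATCT in 9.9%. These windows, unlike the stretches shown, were not stopped at a neighbouring gene.

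The deaminase and reductase genes of the next steps both fell with riboflavin. PyrD (AT4G20960; chromosome 4, 11211244 to 11213696, 3 exons) was at 25.2, 24.8 and 23.5 CPM in Col-0, at 27.5, 27.9 and 25.8 CPM in the mutant and at 15.0, 17.3 and 17.9 CPM with riboflavin. All riboflavin libraries were well below the others, and the mutant libraries were slightly above Col-0. Its log2 fold change with riboflavin was -0.55 ± 0.068 (SE; edgeR, adjusted p = 4.64e-08). In the mutant it was 0.14, near the threshold (edgeR, adjusted p = 0.0472; 0.0292 to 0.283 across alternatives), and it was lost under 11 of 15 alternatives. Among these it was lost without Col-0 library B (0.15), Col-0 library C (0.11), mutant library A (0.13) or mutant library B (0.12), with edgeR adjusted p from 0.0682 to 0.182. Of the PyrD transcript's stretches of 50 bases, 3.45% also occurred in transcripts of other loci, so a small part of its reads could be split.

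AT3G47390 (chromosome 3, 17459339 to 17464865, 12 exons), the reductase gene, whose mutant phs1 was named for its sensitivity to light, was at 21.6, 20.7 and 22.1 CPM in Col-0, at 20.4, 20.5 and 21.3 CPM in the mutant and at 15.2, 15.9 and 16.6 CPM with riboflavin. The Col-0 and mutant ranges overlapped and the riboflavin libraries lay below both. Its log2 fold change was -0.435 with riboflavin, with a standard error of 0.065 (edgeR, adjusted p = 1.19e-06), and -0.05 in the mutant (edgeR, adjusted p = 0.508; 95% interval -0.18 to 0.07). The ratio of PyrD to AT3G47390 in TPM was 1.20 ± 0.07 in Col-0, 1.36 ± 0.09 in the mutant and 1.102 ± 0.058 with riboflavin.

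AT4G11570 encodes the phosphatase PyrP2, which removes the phosphate from the pyrimidine intermediate, and it was the member with the largest absolute log2 fold change in both comparisons with riboflavin, while in the mutant it had the smallest. The gene lies on chromosome 4 from 7004265 to 7006125 and has 1 or 2 exons in its 2 transcripts. It was at 69.6, 69.5 and 70.7 CPM in Col-0, at 71.6, 64.4 and 69.0 CPM in the mutant and at 142, 146 and 144 CPM with riboflavin. The riboflavin libraries formed a narrow band far above the rest, and the mutant and Col-0 ranges overlapped. Its rise with riboflavin was 2.07-fold, a log2 fold change of 1.05 ± 0.039 (SE; edgeR, adjusted p = 5.36e-19), higher than in 92.8% of genes. In the mutant it was -0.035 (edgeR, adjusted p = 0.551), with a 95% interval from -0.13 to 0.06.

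The summed TPM of all 8 genes was 319 ± 1.38 in Col-0, 311 ± 3.004 in the mutant and 337 ± 6.70 with riboflavin. Without AT4G11570 the sum of the remaining 7 was 258 ± 0.68, 254 ± 5.39 and 213 ± 4.77 TPM. The whole sum was thus highest with riboflavin, while the sum without the phosphatase gene was lowest there. These TPM carry no TMM scaling. In mutant against Col-0 the median log2 fold change of all genes was -0.053 on log2(TPM + 1) and -0.003 in edgeR. The slightly lower sums of the mutant were not tested and are not read as a change. AT4G11570 made up 19.1 ± 0.17% of the pathway's TPM in Col-0, 18.3 ± 1.03% in the mutant and 36.9 ± 0.23% with riboflavin. Its ratio to COS1 on the TPM scale was 0.70 ± 0.04 in Col-0, 0.73 ± 0.07 in the mutant and 2.12 ± 0.08 with riboflavin.

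The final steps fell with riboflavin. COS1 (AT2G44050; chromosome 2, 18224213 to 18226233, 8 exons) encodes lumazine synthase and was named as a suppressor of the jasmonate receptor mutant coi1. It was at 54.6, 61.1 and 59.5 CPM in Col-0, at 52.8, 57.3 and 54.7 CPM in the mutant and at 38.1, 42.2 and 39.5 CPM with riboflavin. The mutant range overlapped that of Col-0 and the riboflavin range did not. Its log2 fold change was -0.545 with riboflavin, with a standard error of 0.052 (edgeR, adjusted p = 3.52e-10). In the mutant it was -0.09 and not called (edgeR, adjusted p = 0.142; 0.0259 to 0.415 across alternatives), but it passed without Col-0 library A at -0.14 (edgeR, adjusted p = 0.0322) and with limma-trend on TPM at -0.144 (limma, adjusted p = 0.0259). The limma-trend fit had no TMM scaling, and the median log2 fold change of all genes was -0.053 in it, against -0.003 in edgeR.

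AT2G20690 (chromosome 2, 8923305 to 8924974, 2 exons), the gene of riboflavin synthase, was at 38.8, 37.0 and 35.5 CPM in Col-0, at 41.4, 41.4 and 39.5 CPM in the mutant and at 23.1, 23.2 and 25.5 CPM with riboflavin. The 3 groups did not overlap, with the mutant a little above and riboflavin clearly below Col-0. It fell most of the 8 genes with riboflavin, at -0.63 ± 0.057 (SE; edgeR, adjusted p = 1.18e-10), although 18.5% of all genes had a lower log2 fold change. In the mutant its 0.135 (standard error 0.051) was called (edgeR, adjusted p = 0.0292; 0.0166 to 0.188 across alternatives). The call was lost without Col-0 library B (0.13), Col-0 library C (0.10), mutant library A (0.12) or mutant library B (0.12), with edgeR adjusted p from 0.0602 to 0.147. Its last 81 bases overlap AT2G20700 on the opposite strand, which is 6.7% of its exon bases. AT2G20700 was at 0.10 to 1.52 CPM in any library. RIBA3 shares 64 bases in the same way with AT5G59760, which was at 0.05 to 0.37 CPM, and the lncRNA gene AT3G07745 opposite AT3G47390 shares 0 exon bases with it. Whether the counting used strand is not given in the sources used here.

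Upstream sequence is shown for AT4G11570, the gene that rose most with riboflavin, and for the 4 genes that fell, again with capitals for matches to the same motifs.
AT4G11570, chr4:7004015-7004264, plus strand: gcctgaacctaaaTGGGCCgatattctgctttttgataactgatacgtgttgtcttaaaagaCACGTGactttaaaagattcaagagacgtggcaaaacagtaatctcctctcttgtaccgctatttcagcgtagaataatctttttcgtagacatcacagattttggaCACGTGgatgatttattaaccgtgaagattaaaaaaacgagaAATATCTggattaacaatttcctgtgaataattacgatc
PyrD, chr4:11211110-11211243, plus strand: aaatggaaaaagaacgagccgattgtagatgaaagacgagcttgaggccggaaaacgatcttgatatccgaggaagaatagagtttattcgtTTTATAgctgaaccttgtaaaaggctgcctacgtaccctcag
AT3G47390, chr3:17459089-17459338, plus strand: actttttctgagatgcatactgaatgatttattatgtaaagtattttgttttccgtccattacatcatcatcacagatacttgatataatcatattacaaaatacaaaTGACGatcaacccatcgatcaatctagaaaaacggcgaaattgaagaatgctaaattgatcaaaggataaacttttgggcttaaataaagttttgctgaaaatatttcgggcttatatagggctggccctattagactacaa
COS1, chr2:18224163-18224212, plus strand: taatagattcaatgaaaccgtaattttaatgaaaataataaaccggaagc
AT2G20690, chr2:8923228-8923304, plus strand: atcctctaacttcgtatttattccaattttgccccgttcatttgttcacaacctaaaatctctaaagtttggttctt
The AT4G11570 stretch held CACGTG at 188 and 81 bases before the start, and 0.97% of the 24634 windows held 2 or more. It also held TGGGCC 237 bases and AATATCT 39 bases before the start. CACGTG was absent from the 250 bases before GCH and before RIBA2, which also rose with riboflavin. Among the 4 genes that fell, the stretch before AT3G47390 held TGACG 142 bases before its start and that before PyrD held TATAAA on the minus strand 42 bases before its start. The stretches of COS1 and AT2G20690, only 50 and 77 bases up to the neighbouring gene, held none of the motifs. A match is a string of letters in a window and not a measured site, and shorter stretches hold fewer matches.

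The direct comparison of riboflavin with the mutant uses no Col-0 library and asks where the altered FMN/FHY line and the vitamin-fed wild type differ in this pathway. All 8 genes were called, 3 higher and 5 lower with riboflavin, where 37% and 37.1% of 20344 genes were (edgeR, adjusted p under 0.05). The groups did not overlap for any of the 8 genes, against 75.2% of all genes, and the median log2 fold change of the 8 was -0.41 against -0.002. AT4G11570 was higher by 1.09 (edgeR, adjusted p = 2.25e-20), the sole member past 1, as were 17% of all genes. RIBA2 was higher by 0.55 ± 0.065 (SE; edgeR, adjusted p = 8.49e-09), and RIBA3 was lower at -0.55 ± 0.063 (SE; edgeR, adjusted p = 4.90e-09). AT2G20690 was at -0.75, PyrD at -0.68, COS1 at -0.45 and AT3G47390 at -0.37. GCH was higher by 0.11 (edgeR, adjusted p = 0.0226; 0.00997 to 0.261 across alternatives), a call lost without mutant library A at 0.10 (edgeR, adjusted p = 0.0688) or riboflavin library A at 0.065 (edgeR, adjusted p = 0.178) and with upper quartile scaling at 0.05 (edgeR, adjusted p = 0.261).

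**Figure D4:**
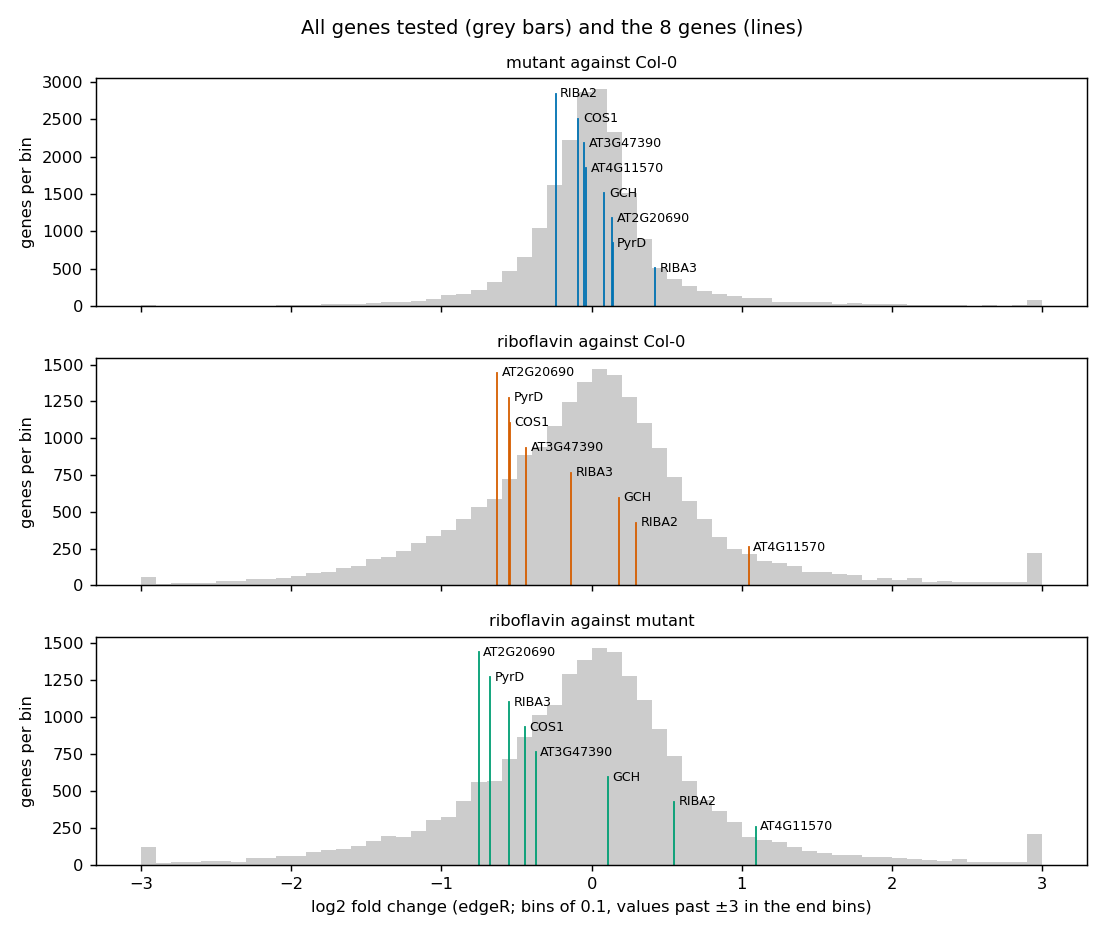
Number of genes (y axis) per log2 fold change bin of 0.1 (x axis) over all genes tested in each comparison (grey), with the 8 genes marked by lines whose height has no meaning. With riboflavin AT4G11570 lies at 1.05, above 92.8% of genes, and AT2G20690 at -0.63, above 18.5% of genes.

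Likeness of pattern was measured as the root mean square difference of log2(CPM + 1) over the 9 libraries, each gene centred on its own mean, among genes with a mean of at least 10 CPM. Differences between groups and between libraries of a group both enter it, and 13109 other genes were ranked for each member. PyrD and AT2G20690 were close to each other, with a difference of 0.061, and AT2G20690 was the 9th nearest gene to PyrD and PyrD the 18th nearest to AT2G20690. AT3G47390 and COS1 differed by 0.087, at places 520 and 218. Some other pairs of members lay far apart. Of the genes ranked, 93.9% were nearer to AT2G20690 than AT4G11570 was, and 75.1% were nearer to RIBA3 than RIBA2 was. The gene nearest to AT4G11570 was CYP87A2 (0.044), a cytochrome P450 gene, and the gene nearest to AT2G20690 was MORF9 (0.041), whose product takes part in RNA editing in plastids. The nearest to the other members were AT1G03280 for GCH (0.015), AT3G17740 for RIBA2 (0.046), SBT1.3 for RIBA3 (0.040), ENP for PyrD (0.039), AT3G23690 for AT3G47390 (0.034) and AT2G42770 for COS1 (0.045).

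The enzymes that interconvert riboflavin, FMN and FAD form a list of 5 genes. With riboflavin 2 were higher, 1 lower and 2 not called, with a median log2 fold change of 0.12. Among all genes 36.8% were called higher and 37.4% lower. FMN/FHY itself was higher by 1.41 and NUDX23, an FAD pyrophosphohydrolase, by 0.24, while the FMN hydrolase gene FHY1 was at -0.34. The FAD synthetase genes AT5G23330 and AT5G08340 were at 0.12 and -0.10 and not called (edgeR, adjusted p = 0.120 and 0.223). In the mutant FHY1 was at -0.46 and FMN/FHY at -0.15, both called lower, and the other 3 were not called, where 25.4% of all genes were called higher and 25.2% lower.

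Of 5 enzymes that share a substrate with the pathway or supply one, 1 was higher and 4 lower with riboflavin, with a median of -0.43, beside 36.8% and 37.4% of all genes. CNX2, which starts molybdenum cofactor synthesis from GTP, was higher by 0.76, and AT3G07270, GTP cyclohydrolase I of folate synthesis, was at -0.43. The Calvin cycle enzymes PRK, RPI3 and RPE were at -1.53, -0.94 and -0.34. In the mutant 3 were higher and 1 lower, with a median of 0.14, beside 25.4% and 25.2% of all genes, AT3G07270 being higher by 0.34 and PRK at -0.235.

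Among 9 genes for other B vitamins, 3 were higher, 5 lower and 1 not called with riboflavin, with a median of -0.495, so 8 of 9 were called where 74.2% of all genes were. The pyridoxal phosphate genes PDX2 and PDX1.1 were higher by 0.825 and 0.50, whereas the biotin synthase gene BIO2 was at -1.50 and the thiamine genes THI1 and THIC at -0.89 and -0.495. In the mutant 2 were higher, 4 lower and 3 not called, with a median of -0.18, where 50.6% of all genes were called, THIC being at -0.55 and PDX2 at 0.29.

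In the authors' deposited table for riboflavin, 3 of the 8 genes were higher and 4 lower at a q-value under 0.05, and in their table for the mutant 1 was higher and 1 lower. The share of all genes past that q-value in their tables was not computed. DESeq2 run here called 6975 of 24249 genes higher and 6768 lower with riboflavin at an adjusted p under 0.05. In the mutant it called 4266 and 3894 of 24242, so such calls do not set the 8 genes apart. The mutant genes past that threshold in the authors' deposited table were RIBA3 at 0.43 and RIBA2 at -0.24. PyrD and AT2G20690 had q-values of 0.18 and 0.115 in the authors' deposited table for the mutant.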

How the data were processed

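The submitters' processing notes name DESeq2, RSEM and Bowtie2 with the TAIR10 build but no versions, whereas the series text names SOAPnuke 1.5.2 and HISAT2 2.0.4, so the aligner behind the values is not settled. Per the file headers, the deposited expected counts are estimated reads per gene and library, not normalized, and 1.88% of them were not whole and were rounded. Mean TPM in the deposited tables, per the file headers, are averages of each group per transcript length, used only to check TPM computed here. The columns of single libraries, counts and TPM alike, carry letters that match no replicate number, so each was assigned to its group only and 1 measure, the counts, was kept. The 12 TPM columns were not used, and TPM were computed from the counts and the longest RefSeq TAIR10.1 transcript, with no TMM scaling. The deposited log2 fold changes and the authors' p-values and q-values are used only where named. Both tables were joined by identifier, and 779 genes found in 1 table, none with a Col-0 read, were set to 0 in the other group. All identifiers matched RefSeq TAIR10.1, from which positions and upstream sequence were read. Protein sequences were not used here.

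Counts were tested across all genes in edgeR 4.0.16 under R 4.3.3, with the 6 libraries of each comparison, filterByExpr (minimum count 10, minimum total 15), TMM scaling, the quasi-likelihood F test with no covariate and Benjamini-Hochberg adjustment over the genes tested. Fold changes use a prior count of 0.125. CPM are on the TMM scale of all 9 libraries. The test was also run on simulated counts with known changes. These were drawn from the model that the test assumes, so that run cannot show how well the model suits these libraries. Members, gene lists and tests were chosen with earlier results of these data known. All 8 members passed the filter in each comparison. By rule, all members, 3 pathway lists and the 1 gene nearest in pattern to each member are named, and the overlapping genes AT2G20700 and AT5G59760 were added after the annotation was seen. Libraries of a group differed by more than counting noise, with a chi-square per degree of freedom from 1.79 to 2.55. Alternatives were DESeq2 1.42.0, DESeq2 size factors, upper quartile scaling, no filter, 1 fit over all 9 libraries, a filter on mean counts under 50, the column letter taken as a block, a 2-fold threshold (1 in log2), leaving out each library and, chosen after the data were seen in place of deposited TPM, limma-trend 3.58.1 on log2(TPM + 1) or log2(TPM + 0.1).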

Additional observations from a re-analysis of the deposited data

How the results depend on the processing

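No called member changed sign under any alternative run. With riboflavin against Col-0 the 3 higher and 4 lower calls held except under a threshold of 1 in log2, which left 1 higher and 0 lower, and RIBA3 was called in addition under 5 of 15 alternatives. Against the mutant that threshold also left 1 higher and 0 lower, and GCH lost its call under 5 of 15. In mutant against Col-0 the 3 higher calls became 1 with DESeq2, with limma-trend on TPM at either pseudocount and after upper quartile scaling, 2 with no filter, with the mean count filter and with all 9 libraries fitted together, and 1 to 3 without each library in turn. Over all genes the higher calls there were 5148 of 20277 in the main fit and 4266 of 24242 with DESeq2. They were 4817 of 20277 after upper quartile scaling and 3953 of 20277 with limma-trend on log2(TPM + 1). The lower calls were 5106, 3894, 5471 and 6129 in the same order. PyrD lost its mutant call under 11 of 15 alternatives and AT2G20690 under 8. The 1 lower call became 2 with limma-trend at either pseudocount and 1 to 2 without each library, and the threshold of 1 in log2 left 0 higher and 0 lower. RIBA2 and RIBA3 kept their mutant calls in all 15 other alternatives. The planned fit on deposited TPM of single libraries is not reported, since 1 measure per library was kept and that was the counts, and limma-trend on computed TPM, chosen after seeing the data, took its place. No label ties a column letter to a replicate number. Libraries of different groups with the same letter had correlations of deviations from -0.028 to 0.0307, and those with other letters from -0.0478 to 0.0394. The replicate block by column letter gave 3 higher and 1 lower member in the mutant, 3 and 4 with riboflavin against Col-0 and 3 and 5 against the mutant. Over all genes that fit called 5245 higher and 5183 lower of 20277 in the mutant. It called 7466 and 7568 of 20356 with riboflavin against Col-0, and 7523 and 7566 of 20344 against the mutant. Standard errors of 0.039 to 0.068 limit what could be called, as with GCH at 0.085 in the mutant.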
